A study of Homo sapiens with 12 samples.

Results

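Replication-dependent histone genes encode the bulk of the histones that package newly made DNA. They were followed here in ZR-75-1 cells, an established human oestrogen receptor-positive breast cancer line. Members were chosen by symbol alone: H1-1 to H1-5, and the symbols that join H2AC, H2BC, H3C or H4C to a number. Of 60612 rows in the count table, 65 matched, and 30 of these had a mean raw count of at least 20 over the 12 libraries: 2 H1, 6 H2A, 11 H2B, 5 H3 and 6 H4 genes. Just inside that limit lay H2AC14, with a mean of 20.4 counts, and just outside it H4C3, with 19.8. Of the other 35 genes, 7 had no count in any library and 16 (these 7 included) had a mean under 1 count.

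RB1, which encodes the retinoblastoma protein, was disrupted by CRISPR editing in the knockout cells, and the cells called sgControl are the control for that editing. Both were kept for 5 days either in DMSO, the solvent, or in abemaciclib at 500 nM, a drug that blocks the cell cycle kinases CDK4 and CDK6. The 4 groups were therefore sgControl with DMSO, sgControl with abemaciclib, RB1 knockout with DMSO and RB1 knockout with abemaciclib, with 3 replicates each. The knockout cells were grown from single sorted cells, so that loss of RB1 and differences between such lines cannot be told apart in any comparison of the genotypes.

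In each S phase a cell has to make histones in step with DNA. Cyclin E with the kinase CDK2 phosphorylates NPAT, a coactivator bound at the histone gene clusters, and transcription follows. The messenger RNAs of these genes usually do not end in a poly(A) tail but in a short stem-loop, which the stem-loop binding protein SLBP holds; the U7 small nuclear ribonucleoprotein directs the cut, and the RNAs are degraded quickly once DNA synthesis stops. Some of the same genes also give longer RNAs with a poly(A) tail, known from differentiated and resting cells. H2A, H2B, H3 and H4 form the core of the nucleosome and H1 binds the linker DNA between nucleosomes.

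The stem-loop is the feature that sets these RNAs apart, so its letters are shown first, for members on which the results below turn. The search took the 16 letters of the consensus in the first 100 bases after the stop codon, on GRCh38 with GENCODE release 44. All 65 members held it, including all 30 reported ones, where it began 23 to 57 bases after the stop codon. Of 19947 stop codons in the genome 72 (0.361%) had it, and the 7 outside the members belonged to H1-6, H2AC25, H2AX, H2BC26, H3-4, H3-7 and H4C16, all histone genes as well. Capitals mark the 16 letters, with 5 bases of flank on each side, 5′ to 3′ on the strand of the gene.
H2AC20, chr1:149887386-149887411, plus strand: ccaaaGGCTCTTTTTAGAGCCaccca
H2BC21, chr1:149886183-149886208, minus strand: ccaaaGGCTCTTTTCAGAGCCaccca
H1-2, chr6:26055739-26055764, minus strand: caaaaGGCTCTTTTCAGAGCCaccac
H3C3, chr6:26045844-26045869, plus strand: gaaaaGGCTCTTTTCAGAGCCactca
H2BC4, chr6:26123467-26123492, minus strand: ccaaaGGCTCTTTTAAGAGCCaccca
H2AC6, chr6:26124664-26124689, plus strand: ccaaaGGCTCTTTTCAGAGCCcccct
H4C8, chr6:26285126-26285151, minus strand: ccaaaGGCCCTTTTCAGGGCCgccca
H4C11, chr6:27824454-27824479, plus strand: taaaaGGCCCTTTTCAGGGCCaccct
The most common form, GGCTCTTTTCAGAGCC, stood in 16 of the 30 reported members, of which 8 rose and 4 fell under abemaciclib in sgControl cells. Among the 3 members, all H4 genes, with GGCCCTTTTCAGGGCC, H4C8 rose while H4C11 and H4C5 fell. Identical stem-loop letters were thus found on both sides. The first AATAAA, the commonest poly(A) signal, lay within 1000 bases after the stop codon in 8 of the 17 members that rose and in 5 of the 7 that fell.

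Of the reported genes 26 lie on chromosome 6 and 4 on chromosome 1. By the span of the gene in the annotation, 17 were compact (387 to 787 bases) and 13 long (1250 to 37610 bases). The sources conflict on how the libraries were made: the labels of these samples name the NEBNext Ultra II Directional kit on total RNA, with no word on selection, whereas the methods of the study describe a Lexogen kit for the 3′ ends of mRNA, which primes on poly(A) tails. With the latter only tailed histone RNA would be counted, and which of them applies was not settled here. RN7SK, RMRP and RPPH1, abundant RNAs without a poly(A) tail, and RNU7-1, the U7 RNA, were listed at 0 counts in all 12 libraries. RN7SL1, also without a tail, had 102.8 to 243 CPM (counts scaled to a common library total). The counts cannot tell RNAs that end at the stem-loop from longer ones with a tail, and a level here is a level of whatever the library caught. Library totals ran from 39907318 to 81636393 counts. RB1 held 4154 to 4825 normalized counts (raw counts divided by the size factor of the library) in sgControl with DMSO, 2252 to 2489 in sgControl with abemaciclib and 39.6 to 63.5 in the 6 knockout libraries. The luminal markers ESR1, GATA3, FOXA1, KRT8, KRT18, KRT19, EPCAM and CDH1 were all at or above 109.6 CPM in every library; of 9 markers of other cell types, CD3E was at 0, PTPRC, COL1A2, PECAM1, KRT5 and KRT14 never passed 6 counts, while COL1A1, VWF and ACTA2 were present, at up to 51.9, 1.87 and 16.3 CPM. Their sum was 48.7 to 56.7 CPM in sgControl with DMSO, 50.7 to 55.8 with abemaciclib, 49.9 to 52.4 in the knockout with DMSO and 63.3 to 65.9 with abemaciclib, and its part in the results was not tested.

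Histone genes went both ways when sgControl cells were treated with abemaciclib. Of 30 members, 17 rose and 7 fell, and 6 did not pass the test, a DESeq2 model over all genes with an adjusted p under 0.05. Over all genes tested 25.0% rose and 24.8% fell. The median change of the members was 0.63 on the log2 scale, against 0.01 for all genes tested, with single members between -2.53 and 1.96. Of 11 H2B genes 8 rose and none fell by DESeq2, nor did any at an unadjusted p under 0.05; both H1 genes fell. In H2A, 4 rose and 1 fell, in H3, 2 and 2, and in H4, 3 and 2. In bulk RNA fewer cells that express a gene and less of its RNA per cell cannot be told apart.

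**Figure D1:**
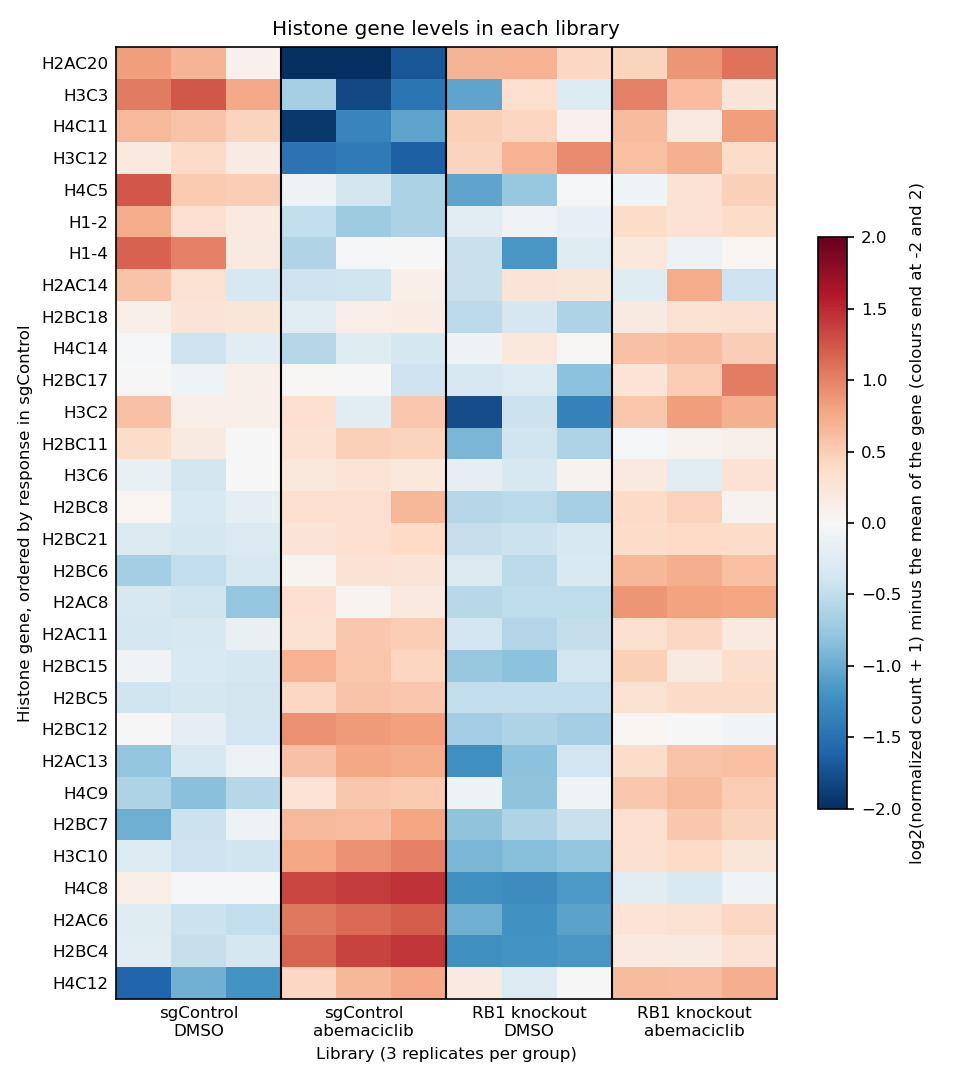
Level of each of the 30 reported histone genes (rows, ordered by the response in sgControl) in each of the 12 libraries (columns, 3 per group), as log2(normalized count + 1) minus the mean of the gene, with colours ending at -2 and 2. Of the 7 genes that fell in sgControl, 5 have their lowest group mean in sgControl with abemaciclib and H1-4 and H4C5 in the knockout with DMSO; most rows in the lower part are higher with abemaciclib in both genotypes.

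H2AC20, an H2A gene on chromosome 1 (chr1:149886918-149887411, plus strand, 1 exon), showed the largest fall in sgControl. It had 217, 194 and 128 normalized counts with DMSO and 29.1, 27.5 and 36.1 with abemaciclib. The 2 groups did not overlap, and the change was -2.53 ± 0.25 (log2 fold change ± SE, DESeq2 adjusted p = 1.7e-22). H3C3 (chr6:26045384-26045869), an H3 gene, had 43.8, 51.1 and 35.9 normalized counts with DMSO and 12.9, 5.3 and 7.0 with abemaciclib, a change of -2.40 ± 0.45 (DESeq2 adjusted p = 2.9e-07). H4C11 (chr6:27824092-27824480) went from 30.7, 29.1 and 26.5 to 4.3, 7.1 and 8.8, a change of -2.06 ± 0.43 (DESeq2 adjusted p = 6.5e-06). In raw counts the abemaciclib libraries held 12, 6 and 8 for H3C3 and 4, 8 and 10 for H4C11. Both genes reached the mean of 20 only through groups where they were higher. Passing that limit therefore favours a difference, and their falls are given as a description, also within the count of 7.

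H3C12 (chr6:27890315-27893106) was the only long gene among the 7 that fell, from 40.0, 45.8 and 39.1 normalized counts to 11.9, 12.4 and 10.6, a change of -1.84 ± 0.33. It overlaps H2AC17 on the same strand, and by its RefSeq span of 512 bases it would be compact. H4C5 fell by 1.19 ± 0.36 and H1-4 by 1.05 ± 0.36 on the log2 scale. The call of H1-4 was lost without sgControl abemaciclib replicate 1 (DESeq2 adjusted p = 0.0542) and without sgControl DMSO replicate 1 (DESeq2 adjusted p = 0.0667). H1-2 (chr6:26055740-26056470), the main linker histone gene in these libraries, had 3634, 2734 and 2495 normalized counts with DMSO and 1549, 1325 and 1402 with abemaciclib, a change of -1.05 ± 0.12 (DESeq2 adjusted p = 1.0e-18). Every abemaciclib library was below every DMSO library for all 3 of H3C12, H4C5 and H1-2.

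Among the members that rose, H4C12 (chr6:27831174-27831560) had the largest change at a low level: 6.5, 10.6 and 8.8 normalized counts with DMSO and 29.1, 34.5 and 37.0 with abemaciclib, 1.96 ± 0.38 on the log2 scale (DESeq2 adjusted p = 8.1e-07). H2BC4 (chr6:26086317-26123926) rose from 238.3, 200.1 and 215 to 618, 706 and 744, by 1.67 ± 0.11 (DESeq2 adjusted p = 8.5e-50). H2AC6 (chr6:26124145-26139116) rose from 933, 814 and 784 to 2277, 2416 and 2551, by 1.52 ± 0.08 (DESeq2 adjusted p = 9.7e-71). H4C8 (chr6:26277609-26285638), the H4 gene with the highest level, rose from 573, 517 and 512 to 1319, 1390 and 1430, by 1.37 ± 0.08. H2BC4, H2AC6 and H4C8 are long genes, and for each of them every abemaciclib library lay above every DMSO library.

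H2BC12 (chr6:27146361-27146855), an H2B gene, was the most abundant member: 6279.8, 5469 and 4786 normalized counts with DMSO, and 11862, 11282 and 11128 with abemaciclib, a rise of 1.05 ± 0.08. It made up 33.5 ± 1.6% (SD, n = 3) of all member reads with DMSO and 42.1 ± 1.9% with abemaciclib. H3C10 (chr6:27810051-27811300), the H3 gene with the highest level, went from 659, 595 and 605 to 1355, 1493 and 1592, and H2BC21 (chr1:149884459-149886682) from 1216, 1165 and 1225 to 1792, 1892 and 1975. H2AC11 rose by 0.73 ± 0.10. H3C6 rose by 0.40 ± 0.16, a call lost when 1 library was dropped in 4 of 12 such fits (any of the 3 abemaciclib libraries of sgControl, or sgControl DMSO replicate 2; DESeq2 adjusted p between 0.054 and 0.146) and under total-count scaling (0.26, DESeq2 adjusted p = 0.199). Scaling by total counts shifted the median of all genes in this comparison by -0.13 and changed the call of no other named member.

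Of the 20 members with a mean of at least 100 raw counts 15 rose and 2 (H1-2 and H2AC20) fell; of the 10 members below that, 2 rose and 5 fell. Some of these 10 reached the limit of 20 only through the groups where they are high (H4C11 had 4, 8 and 10 raw counts in sgControl with abemaciclib), so no difference between members of high and low count is read from this. Of the 35 genes under the limit of 20, 19 were tested, and 10 of these were lower and 3 higher; a gene tested only because 1 group is high had to differ, so these counts support nothing. H1-5, a linker histone gene, had 35, 59 and 41 raw counts with DMSO and 1, 1 and 0 with abemaciclib; in the knockout it had 11, 15 and 10, and 12, 13 and 12. H4C1 had 22, 22 and 17 against 1, 0 and 0 in sgControl, and 4, 7 and 9 against 10, 6 and 11 in the knockout. H2AC18, H2AC19 and H4C4 were the 3 that were higher. H2AC18 and H2AC19 are near-identical copies, so their split of reads is uncertain, as is that of H4C14 and H4C15. These low genes were chosen after their values were seen. Summed, the 35 genes had 5.36 ± 0.80 with DMSO and 2.34 ± 0.29 with abemaciclib (CPM, SD, n = 3) in sgControl, while in the knockout they held 3.18 ± 0.41 and 4.20 ± 0.48.

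Members were also grouped by span. Of the 13 long genes 9 rose and 1 fell, with a median of 0.69 on the log2 scale; of the 17 compact genes 8 rose and 6 fell, with a median of -0.04. With RefSeq spans, an alternative chosen after seeing the data, 6 genes counted as long, of which 5 rose and none fell. Of the 30 members 13 overlap another annotated gene, and since the strand setting of the counting is not given, their counts may hold reads of that neighbour. Among these 13, 9 rose and 3 fell; among the 17 that overlap none, 8 rose and 4 fell.

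Reads of all 65 members together came to 300.6 ± 11.1 with DMSO and 455 ± 18.9 with abemaciclib in sgControl, in CPM (SD, n = 3), a ratio of 1.51 that became 1.65 with counts scaled by size factors. H2B genes made up most of them, with 169 ± 4.5 and 295 ± 8.3 CPM. The H2A sum went from 41.5 ± 1.6 to 76.3 ± 6.8, the H3 sum from 18.3 ± 0.7 to 30.7 ± 2.9 and the H4 sum from 16.2 ± 0.7 to 28.7 ± 2.1. The H1 sum alone was lower with the drug, 55.5 ± 7.9 against 24.3 ± 1.1 CPM. Counts of mitochondrial genes took 2.82 to 3.99% of the library with DMSO and 7.22 to 8.53% with abemaciclib in sgControl, and 3.78 to 4.13% and 5.44 to 7.39% in the knockout; their part in these sums was not tested.

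**Figure D2:**
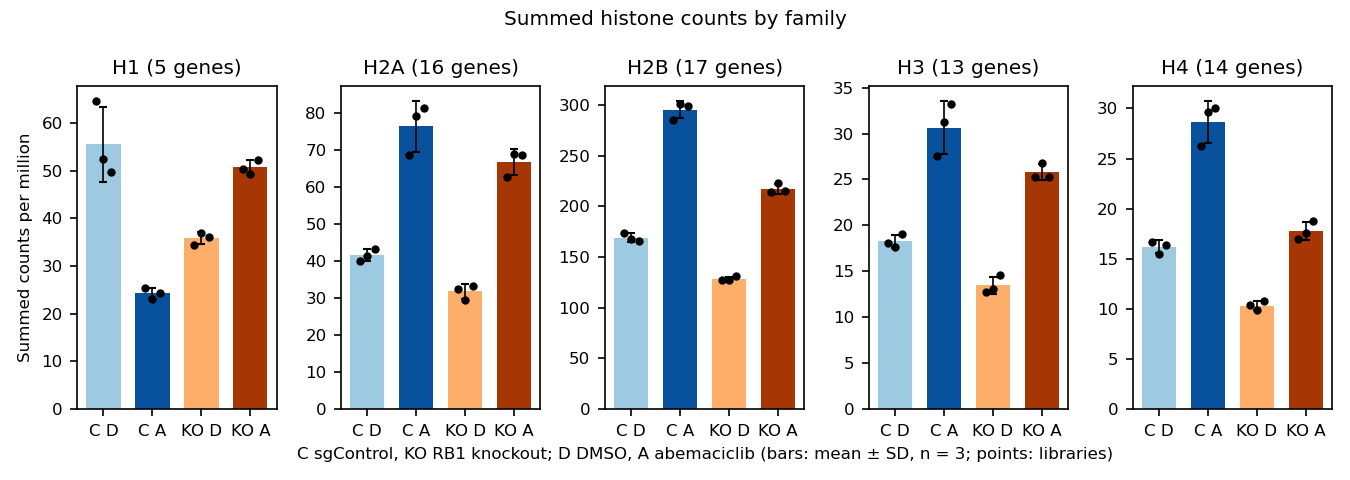
Summed CPM of all members of each family (y axis, from 0) in the 4 groups; bars are means with SD over 3 libraries and points are libraries. With abemaciclib the H2A, H2B, H3 and H4 sums are higher in both genotypes, whereas the H1 sum is lower in sgControl (55.5 to 24.3) and higher in the knockout (35.9 to 50.7).

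Without RB1, no member fell with abemaciclib. In the knockout 21 of 30 members rose and none fell by DESeq2; at an unadjusted p under 0.05, 24 were higher and none lower, and edgeR called 22 higher and none lower. Over all genes tested 14.9% rose and 15.1% fell. The median change was 0.83, against 0.02 for all genes. All 11 H2B genes rose, by 0.66 to 1.43 on the log2 scale. Of the 17 members that rose in sgControl 15 also rose in the knockout, the 2 others being H3C6 (0.25 ± 0.16) and H4C12 (0.71 ± 0.35).

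The 7 members that fell in sgControl were not called lower with abemaciclib in the knockout. Already in DMSO 4 of them were lower in the knockout than in sgControl (18.2% of all genes tested were). H1-4 had 18.8 ± 6.1 against 51.8 ± 17.4 normalized counts there, and H4C5 18.0 ± 7.3 against 46.9 ± 15.0 (SD, n = 3). Under abemaciclib 5 of the 7 were higher in the knockout than in sgControl (28.5% of all genes tested were). The 7 were picked by a fall in the sgControl libraries, which enter both of these comparisons. Such picking favours lower values of the knockout in DMSO and higher ones under abemaciclib, so neither count is independent evidence. H2AC20 had 194, 196 and 160.3 normalized counts with DMSO and 164, 224 and 258 with abemaciclib, groups that overlap (0.24 ± 0.22, DESeq2 adjusted p = 0.47). H1-2 rose, from 1846, 2059 and 1943 to 2793, 2641 and 2813 (0.50 ± 0.12, DESeq2 adjusted p = 0.00017). H3C12 had 47.8, 57.3 and 68.2 against 53.2, 57.9 and 45.4, and H4C11 27.3, 26.4 and 20.5 against 30.6, 22.1 and 35.3; neither pair of groups was separated. H3C3 (0.90 ± 0.42), H4C5 (0.81 ± 0.40) and H1-4 (0.65 ± 0.40) had positive estimates that did not pass; that of H3C3 passed without RB1 knockout DMSO replicate 2 (DESeq2 adjusted p = 0.0336) and that of H4C5 without RB1 knockout DMSO replicate 3 (DESeq2 adjusted p = 0.0453). The largest rises were those of H3C2 (chr6:26031589-26032099), from 15.0, 39.7 and 20.5 to 79.3, 96.9 and 88.8 (1.80 ± 0.32), and of H2BC4, from 118, 119 and 122 to 316, 311 and 336 (1.43 ± 0.13). H2AC6 rose from 556, 476 and 524 to 1334, 1352 and 1465, and H3C10 from 421, 441 and 457 to 993, 1043 and 940.1. Reads of all members together came to 219.9 ± 5.0 and 378 ± 7.7 CPM, a ratio of 1.72.

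**Figure D3:**
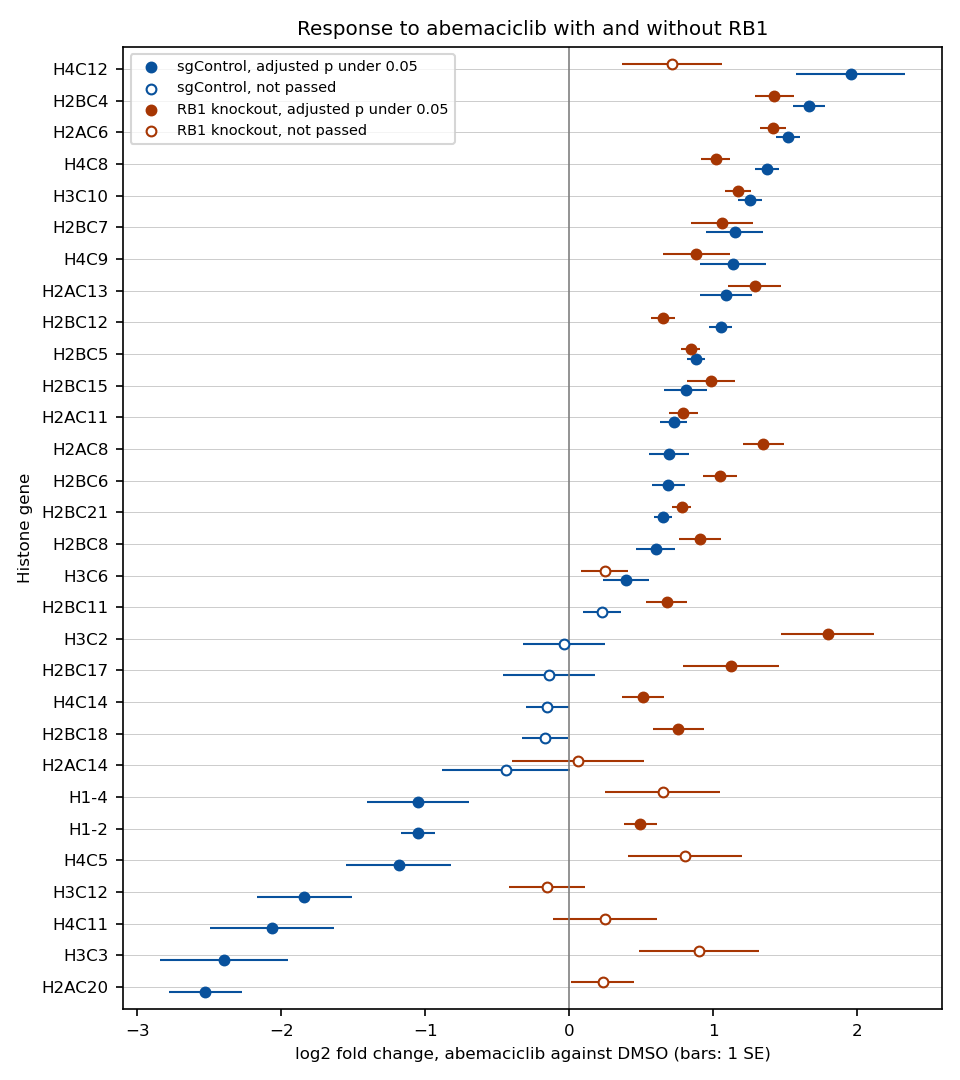
Log2 fold change of abemaciclib against DMSO (x axis) for each of the 30 reported members (y axis) in sgControl (blue) and RB1 knockout (brown); bars are 1 SE and filled points passed an adjusted p under 0.05. For 7 genes the blue points are filled and left of 0, with no filled brown point left of 0, and for 15 genes both colours are filled and right of 0.

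Whether the responses differed between the genotypes was tested as an interaction, the response in the knockout minus that in sgControl. It was positive for 13 members and negative for 3, where 21.1% and 20.3% of all genes tested were called in each direction. All 7 members that fell in sgControl had a positive interaction, but the fall by which they were picked is itself a part of it. That all 7 were positive is therefore no independent evidence, and picking by the fall can enlarge these interactions. The largest were H3C3 (3.30 ± 0.61, DESeq2 adjusted p = 3.9e-07), H2AC20 (2.76 ± 0.33, DESeq2 adjusted p = 1.8e-15), H4C11 (2.31 ± 0.56) and H4C5 (1.99 ± 0.54), followed by H1-4 (1.70 ± 0.54), H3C12 (1.69 ± 0.42) and H1-2 (1.55 ± 0.16, DESeq2 adjusted p = 7.1e-20). A further 5 members did not pass in sgControl but rose in the knockout, and their interactions passed too. They were H3C2 (1.83 ± 0.43), H2BC17 (1.26, DESeq2 adjusted p = 0.0173), H4C14 (0.66 ± 0.21), H2BC11 (0.45, DESeq2 adjusted p = 0.0471) and H2BC18. The call of H2BC11 lay near the threshold. For H2BC17, H2BC11 and H2BC18 the alternatives were not followed gene by gene. The remaining positive call was that of H2AC8 (0.65), which rose in both genotypes.

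For most members that rose, no difference between genotypes was found. H2AC6 had an interaction of -0.10 (95% interval half-width 0.24, log2), H3C10 of -0.09 (half-width 0.24), H2BC4 of -0.24 (half-width 0.34) and H2BC21 of 0.13 (half-width 0.18), so differences of such sizes may have gone undetected. Under total-count scaling the interaction of H2BC21 passed (0.27, DESeq2 adjusted p = 0.0432). The 3 negative calls were those of H4C12 (-1.24 ± 0.51), H2BC12 (-0.40 ± 0.12, DESeq2 adjusted p = 0.0024) and H4C8 (-0.35 ± 0.13). The calls of H4C12 and H4C8 did not hold throughout. That of H4C12 was lost when 1 library was dropped in 9 of 12 such fits (every fit but those without sgControl DMSO replicate 2, sgControl abemaciclib replicate 1 and RB1 knockout DMSO replicate 2), with DESeq2 adjusted p up to 0.107, and with a replicate block (DESeq2 adjusted p = 0.062). That of H4C8 was lost in 7 (without sgControl DMSO replicates 2 or 3, sgControl abemaciclib replicates 2 or 3, RB1 knockout DMSO replicate 3, or RB1 knockout abemaciclib replicates 1 or 2), with DESeq2 adjusted p up to 0.0784. Scaling by total counts, which moved the median interaction of all genes by 0.14, left H2BC12 as the only negative call.

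Without drug, the knockout cells had lower levels of 14 histone RNAs. In DMSO 14 members were lower and 1 higher, with 18.2% of all genes tested lower and 19.2% higher, and the median of the members was -0.39 against -0.01. H4C8 had 224, 218 and 235 normalized counts, against 534 ± 33.4 in sgControl (SD, n = 3), a difference of -1.24 ± 0.10 (DESeq2 adjusted p = 1.6e-32). The lowest estimates were those of H1-4 (-1.45 ± 0.38) and H3C2 (-1.37 ± 0.32), both at low counts. The only higher member was H4C12 (1.28 ± 0.40), with 24.6, 17.6 and 21.6 normalized counts. H3C3 was lower by 1.27 ± 0.41, a call that was lost without RB1 knockout DMSO replicate 1 (DESeq2 adjusted p = 0.0641). H2AC20 did not differ beyond its error (0.04 ± 0.22).

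Under abemaciclib 9 members were higher and 7 lower in the knockout, where 28.5% and 27.4% of all genes tested were called, so the counts are near the background and say nothing particular to histone genes. H2AC20 was higher by 2.80 ± 0.25 (DESeq2 adjusted p = 2.4e-27) and H3C12 by 2.17 ± 0.33 (DESeq2 adjusted p = 3.0e-10), while H4C8 was lower by 1.59 ± 0.09 and H2BC4 by 1.10 ± 0.11 on the log2 scale, the latter with no overlap of the values given above. These comparisons share libraries with those above and are no independent evidence.

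Many histone genes start back to back, mostly an H2A with an H2B gene, and share the short stretch between them. Of 12 such pairs, with starts at most 500 bases apart, all join an H2A with an H2B gene except that of H3C12 and H2BC17. H2BC17 is also paired with H2AC17. The pair of H3C12 and H2BC17 rests on the GENCODE span of H3C12, 2792 bases against 512 in RefSeq. Both partners were reported in 5 pairs: in sgControl 1 of these, H2AC20 with H2BC21, had called changes of opposite direction, 2 had both partners higher and 2 had 1 partner called. The sequence around H2AC20 and H2BC21, whose starts are 235 bases apart, is printed because the 2 genes went opposite ways, and that around H2AC6 and H2BC4, 218 bases apart, because both rose. Those of H4C11 and H4C8 are shown as H4 genes of which 1 fell and 1 rose. Each is the RefSeq window on GRCh38.p14 from 250 bases before to 50 after the start of the first-named gene, 5′ to 3′ on its strand. Capitals mark the TATA element TATAAA, the box CCAAT, the octamer motif ATTTGCAT and the H4 element GGTCCG. They also mark a motif of E2F factors in any of 3 forms, which are TTTGGCGC or the variant TTTCGCGC or else the variant TTTCCCGC. Both strands were searched, and the box and the H4 element can share letters.
H2AC20 and H2BC21, chr1:149886668-149886967, plus strand: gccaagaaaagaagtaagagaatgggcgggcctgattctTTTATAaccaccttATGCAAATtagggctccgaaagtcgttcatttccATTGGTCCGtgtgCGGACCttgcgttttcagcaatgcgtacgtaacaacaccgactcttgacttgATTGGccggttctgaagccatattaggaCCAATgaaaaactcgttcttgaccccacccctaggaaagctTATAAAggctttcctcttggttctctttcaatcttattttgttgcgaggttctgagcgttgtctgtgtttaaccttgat
H2AC6 and H2BC4, chr6:26123922-26124221, plus strand: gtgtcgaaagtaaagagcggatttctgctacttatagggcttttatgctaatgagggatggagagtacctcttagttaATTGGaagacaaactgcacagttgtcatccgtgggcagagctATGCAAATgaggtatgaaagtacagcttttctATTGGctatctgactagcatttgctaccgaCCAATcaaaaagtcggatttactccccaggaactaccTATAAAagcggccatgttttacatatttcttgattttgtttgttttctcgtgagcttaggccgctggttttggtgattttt
H4C11, chr6:27823842-27824141, plus strand: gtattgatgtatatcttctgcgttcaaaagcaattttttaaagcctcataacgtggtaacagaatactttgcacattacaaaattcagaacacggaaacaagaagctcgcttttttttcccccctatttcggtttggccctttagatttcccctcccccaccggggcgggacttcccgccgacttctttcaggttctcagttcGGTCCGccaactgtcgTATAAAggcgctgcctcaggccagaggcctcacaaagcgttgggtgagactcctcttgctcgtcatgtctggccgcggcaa
H4C8, chr6:26285485-26285784, minus strand: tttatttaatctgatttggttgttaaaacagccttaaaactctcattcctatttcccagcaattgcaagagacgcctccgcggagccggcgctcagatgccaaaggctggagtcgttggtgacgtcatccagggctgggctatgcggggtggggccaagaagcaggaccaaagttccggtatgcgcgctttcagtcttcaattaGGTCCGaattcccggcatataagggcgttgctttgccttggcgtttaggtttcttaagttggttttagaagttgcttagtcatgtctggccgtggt

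A promoter window was found for 29 of the 30 reported members. The octamer stood in 14 of 29, in 5 of 6 H2A and 9 of 11 H2B genes and in no H1, H3 or H4 gene, against 1.8% of 35116 promoters of the same length. GGTCCG stood in all 6 H4 genes and in H2AC20 and H2BC21, against 11.3% of all promoters. TATAAA was found in 20 (11.5% of all promoters), CCAAT in 24 (34.6%) and an E2F motif in 7 (2.7%), 3 H2A and 4 H2B genes. Of these 7, 3 were among the members that rose in sgControl and 4 among those that did not pass. The promoters of H4C11 and H4C8 both hold GGTCCG, and only that of H4C11 holds TATAAA. Windows of genes that start back to back overlap, so the same site can be counted for both partners, as for H2AC20 with H2BC21. These counts are therefore not counts of separate sites. The matches are letters in a window and were not tested against the response.

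The proportion of partners within a library does not depend on scaling. H2AC20 had 17.8, 16.6 and 10.4 counts per 100 counts of H2BC21 in sgControl with DMSO, and 1.62, 1.45 and 1.83 with abemaciclib. In the knockout these were 17.95, 17.7 and 13.4 with DMSO, and 8.53, 11.4 and 13.4 with abemaciclib. H2BC13 had 15.1, 8.42 and 4.43 counts per 100 of its neighbour H2AC13 in sgControl with DMSO and 0.516, 0.494 and 1.00 with abemaciclib; in the knockout it had 12.3, 8.84 and 7.12, and then 4.18, 4.41 and 2.86. H2AC12, beside the abundant H2BC12, had 18, 22 and 21 raw counts and then 0, 0 and 4, while H2BC12 rose. H2BC13 and H2AC12 lie under the limit of 20 and were picked after their values were seen, so these values are a description.

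The proportion of H2AC6 and H2BC4 moved little beside the rise of both genes. H2AC6 had 391, 407 and 365 counts per 100 of H2BC4 in sgControl with DMSO, 369, 342 and 343 with abemaciclib, 473, 400.0 and 431 in the knockout with DMSO, and 422, 435 and 436 with abemaciclib. The 4 groups lay within 342 to 473, while H2BC4 rose 3.17-fold and H2AC6 2.87-fold in sgControl, and 2.69-fold and 2.67-fold in the knockout. Under abemaciclib the genotypes differed in this proportion without overlap, with 351 ± 15.2 in sgControl and 431 ± 7.8 in the knockout (SD, n = 3). H2BC4 overlaps HFE and H4C3 on the opposite strand, and H1-6 on its own.

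**Figure D4:**
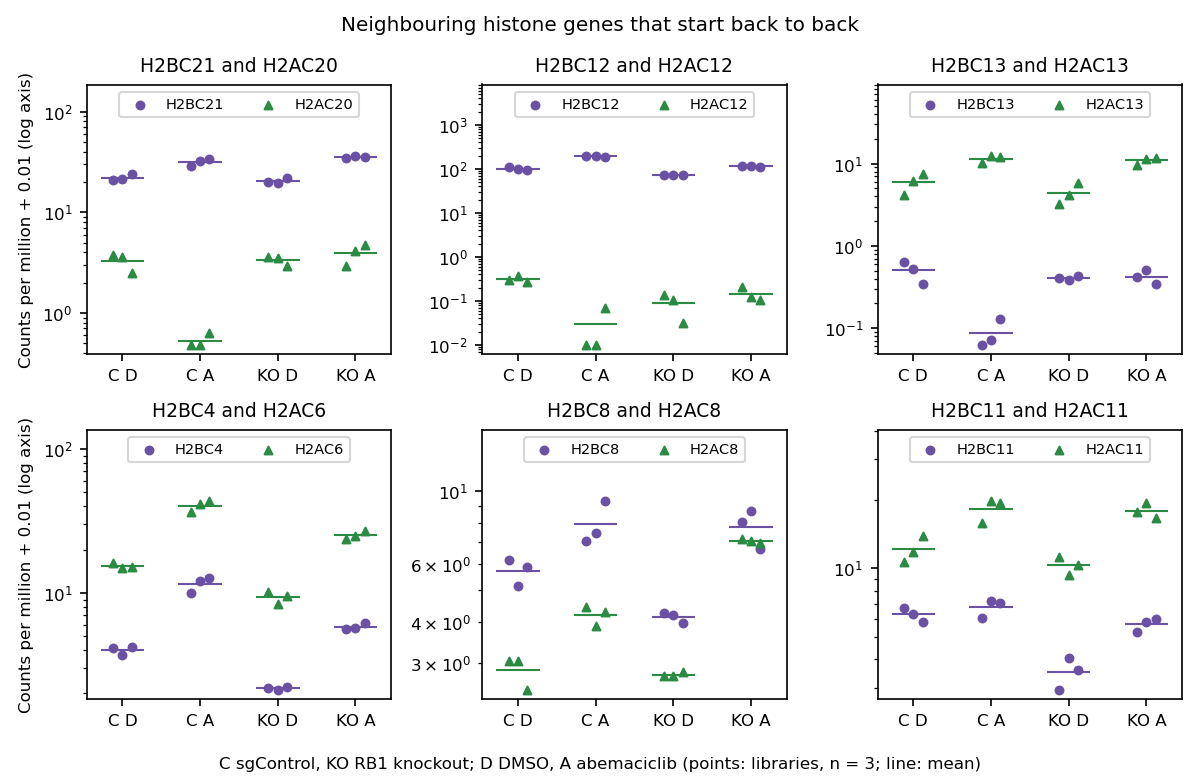
Level on log axes, in CPM with 0.01 added, of 6 pairs of neighbouring histone genes that start back to back, in the 4 groups; points are libraries and lines are means of 3. H2AC20, H2AC12 and H2BC13 are lowest in sgControl with abemaciclib while their neighbours are higher there than with DMSO; the pairs in the lower row show no such split.

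The genes that make and trim histone RNA were read from lists chosen for their known roles. Over all genes tested 25.0% rose and 24.8% fell in sgControl, and 14.9% and 15.1% in the knockout. A count near these shares says nothing particular to its list. In sgControl, SLBP fell from 5971, 5408 and 5692 normalized counts to 2283, 2358 and 2486 (-1.26 ± 0.06, DESeq2 adjusted p = 1.9e-113), and in the knockout it stayed between 5357 and 5682 in all 6 libraries (0.01 ± 0.05). Of 13 genes for processing of the 3′ end, 8 fell and 3 rose in sgControl, and 5 fell and 1 rose in the knockout. LSM11, a protein of the U7 particle, fell by 0.59 ± 0.10 on the log2 scale in sgControl, while its partner LSM10 rose by 0.42 ± 0.09. ZNF473, which binds the same particle, did not pass (0.04 ± 0.08). Of 6 genes for decay 2 rose and 2 fell; ERI1, the exonuclease that trims the stem-loop, fell by 0.34 ± 0.08.

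NPAT fell in sgControl, from 480.3, 547 and 587 normalized counts to 356, 391 and 378 (-0.52 ± 0.10), and rose in the knockout by 0.26 ± 0.09, a call that was lost in 4 fits without 1 library (RB1 knockout DMSO replicates 1 or 3, or abemaciclib replicates 1 or 2; DESeq2 adjusted p up to 0.118) and under total-count scaling (DESeq2 adjusted p = 0.065). CASP8AP2, another protein of the histone locus body, fell by 1.05 ± 0.14 in sgControl. HINFP, the factor that binds the H4 element, rose by 0.23 ± 0.08 in sgControl, a call that scaling by total counts removed (0.10, DESeq2 adjusted p = 0.335), as did leaving out sgControl abemaciclib replicate 2 or sgControl DMSO replicate 3 (DESeq2 adjusted p up to 0.0619). Of the list of cyclin E, cyclin A, CDK2 and its activating phosphatase CDC25A, all 5 genes fell in sgControl, where 24.8% of all genes tested fell. Among them were CCNA2 (-5.08 ± 0.07) and CDC25A (-2.33 ± 0.08). CCNE2 went from 1209, 1212 and 1388 normalized counts to 18.3, 18.6 and 17.6 (-6.13 ± 0.20), CCNE1 fell by 0.96 ± 0.07 and CDK2 by 1.27 ± 0.07. In the knockout CCNE2 had 1615, 1459 and 1614, and then 1747, 1703 and 1699.6 (0.14 ± 0.08). Of the 5 genes 2 rose there (CCNE1, mean 1801 to 2222, and CDK2, 2904 to 3329) and 2 fell (CCNA2, 4931 to 4045, and CDC25A, 1664 to 1148). The call of CDK2 was lost under total-count scaling (DESeq2 adjusted p = 0.0694) and in 2 fits without 1 library (RB1 knockout DMSO replicate 2 or abemaciclib replicate 2).

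**Figure D5:**
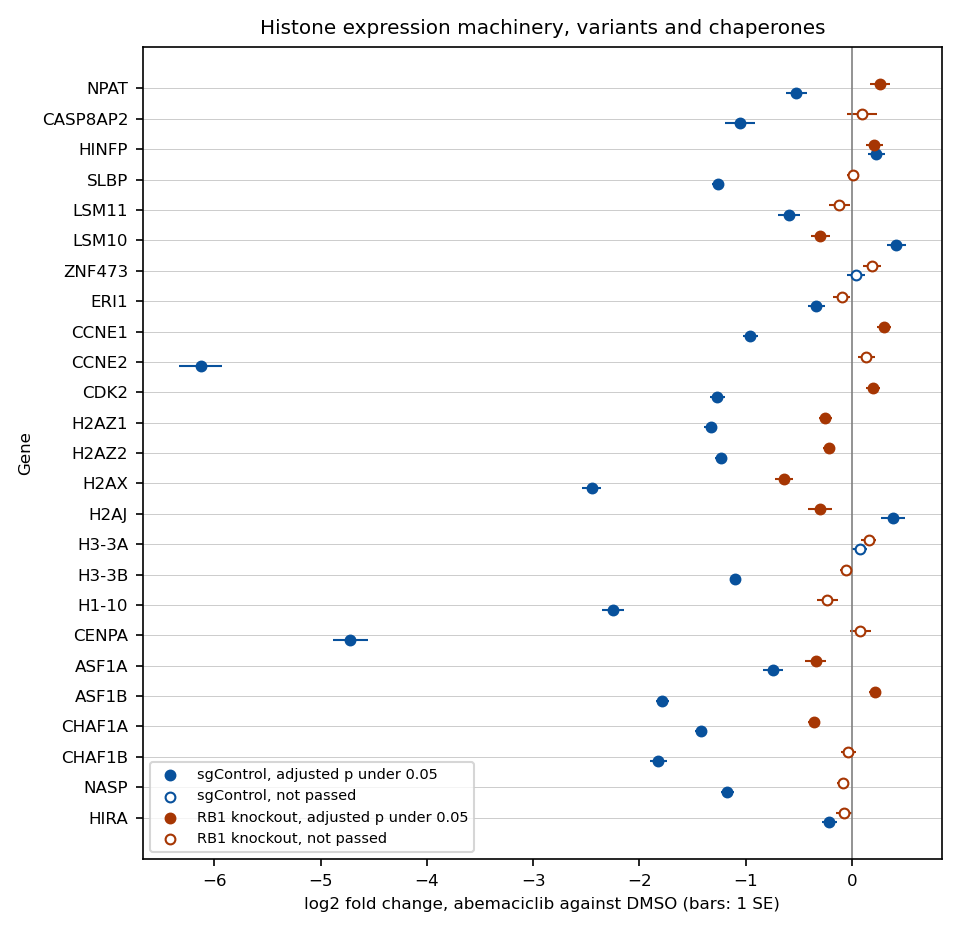
Log2 fold change of abemaciclib against DMSO (x axis) in sgControl (blue) and RB1 knockout (brown) for genes of histone transcription and RNA processing, cyclin E and CDK2, histone variants and chaperones (y axis); bars are 1 SE and filled points passed an adjusted p under 0.05. In sgControl CCNE2 (-6.13) and CENPA (-4.72) lie furthest left, while the brown points lie between -0.64 and 0.30.

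Histone variants, which are made outside S phase as well and mostly from RNAs with a poly(A) tail, were read in the same way. Of 14 variant genes 8 fell and 2 rose in sgControl, where 24.8% and 25.0% of all genes tested did. In the knockout 5 fell and 2 rose, where 15.1% and 14.9% did. CENPA, the H3 variant of centromeres, had 983, 905 and 815 normalized counts and then 29.1, 30.1 and 42.3 (-4.72 ± 0.17). H2AX, the variant phosphorylated at DNA breaks, fell by 2.45 ± 0.09 in sgControl and by 0.64 ± 0.09 in the knockout; its gene is among the 7 outside the members with a stem-loop. The linker variant H1-10 fell (-2.25 ± 0.10), and so did H2AZ1 (-1.33 ± 0.06), H2AZ2 (-1.23 ± 0.05) and H3-3B (-1.10 ± 0.05). The 2 that rose were H2AJ (0.39 ± 0.11) and H4-16. The latter is the symbol in the count table for H4C16, an H4 gene with a stem-loop rather than a variant in the strict sense, and was picked after its values were seen. It rose from 92.2, 113 and 112 to 390.1, 445 and 429 (1.99 ± 0.19).

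Chaperones carry new histones to DNA. Of 21 genes 13 fell and 4 rose in sgControl, where 24.8% and 25.0% of all genes tested did. In the knockout 4 fell and 5 rose, where 15.1% and 14.9% did. CHAF1B (-1.82 ± 0.08) and CHAF1A (-1.42 ± 0.06), subunits of the CAF-1 complex that assembles nucleosomes behind the fork, fell, as did ASF1B (-1.78 ± 0.06), ASF1A (-0.74 ± 0.10) and NASP (-1.18 ± 0.06), which carry H3 and H4. HIRA, which places H3.3 outside replication, fell by 0.22 ± 0.07, a call that was lost without sgControl abemaciclib replicate 1 (DESeq2 adjusted p = 0.0672). In the knockout ASF1B rose by 0.22 ± 0.06 and CHAF1A fell by 0.36 ± 0.05. The interaction was positive for 13 of the 21 and negative for 3, where 21.1% and 20.3% of all genes tested were called.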

How the data were processed

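The authors trimmed the reads, aligned them to hg38 with STAR 2.7.5b and assigned them to GENCODE genes with featureCounts 2.0.1, and deposited raw counts per gene for 12 libraries. Strand and multimapping settings are not given in the sources used here; with multimapping reads dropped or split, near-identical histone copies would be affected. The labels name a directional kit on total RNA, and the methods of the study a 3′ mRNA kit primed on poly(A) tails. Of 60656 rows, 44 name no gene and were left out. The submitters state biological replicates; p-values measure the spread between these samples.

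Counts were fitted with DESeq2 1.42.0 in R 4.3.3 (1 term for the 4 groups, Wald test, Benjamini-Hochberg over all genes left by independent filtering, adjusted p under 0.05), and 95% intervals are normal. The script was tested on simulated data. Alternatives were edgeR 4.0.16 (quasi-likelihood, TMM), total-count scaling, filters, a replicate block, fits on the samples of 1 contrast and leaving out each library. Tables were made with Python 3.11.15 and pandas 2.3.3. Spans, overlaps and stop codons come from GENCODE release 44 on GRCh38 and promoters from RefSeq GRCh38.p14. The GENCODE release used for counting differs, so a span may not be the one counted.

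Members and lists were chosen with earlier results of these data known. The genes named were the 2 highest of each family, the members with the largest called changes in each direction (4 for the response in sgControl and the interaction, 2 otherwise), those beside the limit of 20, fixed list genes and RB1. Others complete the positive interactions or are said to be picked afterwards. A gene of the variant list is counted in its list and otherwise not reported here. Same-numbered libraries were compared by the correlation of their deviations from the group means over 11885 genes. It was 0.15, 0.259 and 0.112 between the abemaciclib groups of the genotypes, and not all above 0.1 elsewhere (-0.25 to 0.245). The sample titles give replicate numbers but no pairing. The replicate block, which gives all 4 groups the same replicate effect, is therefore only an alternative.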

Additional observations from a re-analysis of the deposited data

Results flagged for a closer look

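By the interaction in DESeq2, the response to abemaciclib was higher in the RB1 knockout than in sgControl for 13 histone genes and lower for 3. Over all genes tested 21.1% and 20.3% were called in these directions. Among the 13 are the 7 members that fell in sgControl, and that fall is itself a part of the interaction. Differences in log2 response, knockout minus sgControl, were 3.30 for H3C3, 2.76 for H2AC20, 2.31 for H4C11, 1.99 for H4C5 and 1.83 for H3C2. They were 1.70 for H1-4, 1.69 for H3C12, 1.55 for H1-2 and 0.66 for H4C14. The other positive calls were those of H2BC17 (1.26), H2AC8 (0.65), H2BC11 (0.45, DESeq2 adjusted p = 0.0471, near the threshold) and H2BC18. On the other side they were -1.24 for H4C12, -0.40 for H2BC12 and -0.35 for H4C8. The call of H4C12 was lost in 9 and that of H4C8 in 7 of 12 fits without 1 library, and both were lost under total-count scaling.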

How the results depend on the processing

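Among 230 gene results for 46 named genes, 4094 comparisons with an alternative gave 3981 on the same side of the threshold, 84 no longer past it, 29 newly past it and 0 of opposite direction. With a minimum mean of 100 counts the sgControl count of members lower was 2, the positive interactions 6, members higher in the knockout 0 in DMSO and 5 in abemaciclib. Without members that overlap another gene, chosen after seeing the data, 8 rose and 4 fell in sgControl. Total-count scaling left 1 negative interaction. With RefSeq spans, also chosen afterwards, 5 long members rose and 0 fell. The summed ratio in sgControl was 1.653 with size factors. For the smaller counts the construction leaves fewer genes; the cause of the others was not tested. Leaving out 1 library gave 16 to 18 members higher and 6 to 7 lower in sgControl, 11 to 13 positive and 1 to 3 negative interactions. The 1 came without sgControl DMSO replicate 3, sgControl abemaciclib replicates 2 or 3, RB1 knockout DMSO replicate 3, or RB1 knockout abemaciclib replicates 1 or 2. Members with low counts are limited by depth.

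With the replicate block, 17 members rose and 7 fell in sgControl, 21 rose in the knockout, and 12 interactions were positive and 2 negative. With the same block, 8 members were higher and 7 lower in the knockout under abemaciclib.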
